A study of Homo sapiens with 6 samples.

Results

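Aldehyde dehydrogenases oxidise aldehydes to carboxylic acids, with NAD or NADP as the electron acceptor. The report covers 10 of their genes, ALDH1A1, ALDH1A2, ALDH1A3, ALDH1B1, ALDH2, ALDH3A1, ALDH3A2, ALDH3B1, ALDH1L2 and ALDH7A1, which were taken by symbol from the 57781 gene rows of the count table. RNA-seq was carried out on A549, a long-established line from a human lung adenocarcinoma, in 3 libraries of vector-control cells and 3 libraries of METTL3-knocked down cells (shMETTL3), to compare gene expression with and without METTL3, the catalytic subunit of the complex that writes m6A on mRNA. The vector cells are labelled wild type and the shMETTL3 cells METTL3 knockdown, and no drug, dose or time is given for either. The knockdown used a short hairpin RNA, whose sequence and number of clones are not given for these libraries, and the table heads the shMETTL3 columns sh1, sh2 and sh3, which may stand for replicates of 1 hairpin or for several hairpins. The study's methods state in general that experiments were repeated independently, but neither they nor the labels say whether the libraries of a group came from separate cultures, so the p-values measure only the spread between these libraries, which may be technical.

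The enzymes differ in substrate and in place. ALDH1A1, ALDH1A2 and ALDH1A3 are cytosolic and make retinoic acid from retinaldehyde, ALDH2 and ALDH1B1 clear acetaldehyde and other short aldehydes in mitochondria, and the ALDH3 enzymes act on medium-chain, long-chain and aromatic aldehydes, many of them products of lipid peroxidation. ALDH1L2 belongs to mitochondrial folate metabolism and ALDH7A1 to the breakdown of lysine. A549 cells are known for a high ALDH1A1 level, and aldehyde dehydrogenase activity is widely used as a marker of stem-like tumour cells.

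The promoters of 2 members are shown because ALDH1A1 had the highest transcript level and ALDH1A3 the largest change. Each is a window of 300 bases, from 250 before to 50 after the transcript start, printed 5′ to 3′ on the gene's strand from RefSeq (GRCh38.p14). Capitals mark matches on either strand to any of 5 motifs. The TATA box was searched as TATAAA and the CCAAT box by the letters of its name. The GC box was searched as GGGCGG and the core bound by the aryl hydrocarbon receptor, the XRE core, as GCGTG. The core of the antioxidant response element, the ARE core, was searched as TGACNNNGC. The ALDH1A1 window is at chr9:72953004-72953303 on the minus strand and the ALDH1A3 window at chr15:100879581-100879880 on the plus strand.
ALDH1A1: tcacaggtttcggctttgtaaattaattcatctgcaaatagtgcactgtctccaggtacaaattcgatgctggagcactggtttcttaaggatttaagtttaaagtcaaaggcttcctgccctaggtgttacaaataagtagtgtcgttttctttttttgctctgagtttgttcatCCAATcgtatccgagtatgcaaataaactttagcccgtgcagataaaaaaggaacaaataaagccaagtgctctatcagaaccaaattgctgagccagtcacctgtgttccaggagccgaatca
ALDH1A3: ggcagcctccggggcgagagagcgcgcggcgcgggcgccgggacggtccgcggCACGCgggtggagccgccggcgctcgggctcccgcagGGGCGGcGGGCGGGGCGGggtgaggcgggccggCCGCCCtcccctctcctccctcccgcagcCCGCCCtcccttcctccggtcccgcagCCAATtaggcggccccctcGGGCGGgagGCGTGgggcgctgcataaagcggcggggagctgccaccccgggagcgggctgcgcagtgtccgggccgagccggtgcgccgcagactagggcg
The ALDH1A1 window held 40.33% G and C and 1 CCAAT box. The ALDH1A3 window held 81.67% G and C, 1 CCAAT box, 6 GC boxes, of which 2 overlap by a base, and 2 XRE cores. Across 35116 RefSeq promoter windows of the same length the median was 58.67% G and C (quartiles 47.0% and 68.0%), so that both windows lie outside these quartiles on opposite sides. The share of all windows with a match was 11.53% for the TATA box, 34.61% for the CCAAT box, 44.95% for the GC box, 36.54% for the XRE core and 13.35% for the ARE core. RefSeq windows were read for 7 of the 10 members, and none of them held a TATA box or an ARE core. Windows for ALDH2, ALDH3A1 and ALDH1L2 were not analysed here. These matches describe letters only.

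Library totals ran from 14931426 to 19108928 counts, and a gene with 3 counts in a library, taken as the floor, stood at 0.150 to 0.189 CPM (counts per 1000000 reads counted, scaled by edgeR's TMM factors). METTL3 fell from 49.9 ± 0.676 to 19.4 ± 0.525 CPM (mean ± SD, n = 3 libraries in each group here and below), 38.8% of the vector level. Of the 5 epithelial markers, 4 fell (KRT8, KRT18, KRT19 and EPCAM) and KRT7 rose, so that the 5 together stood at 9810 to 10459 CPM in the vector and at 5043 to 5489 CPM in the shMETTL3 libraries. CDKN2A, a gene deleted in A549 cells, had 0 to 5 counts in every library. Markers of other cells were low: 6 fibroblast genes summed to 6.46 to 9.87 CPM and 14.3 to 14.7 CPM, 5 immune genes, of which only CD14 passed the floor in any library, to 0.299 to 0.981 CPM and 5.84 to 6.80 CPM, and 3 endothelial genes, of which only CDH5 passed it, to 0 to 0.123 CPM and 1.40 to 1.95 CPM. CD3E and VWF were at 0 in every library. These sums were higher in the shMETTL3 libraries, and their part in the changes of the aldehyde dehydrogenases was not tested.

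Of the 10 aldehyde dehydrogenases, 9 had enough counts to be tested, and ALDH1A2 did not. All 9 passed the test at an adjusted p under 0.05 (edgeR's quasi-likelihood test, Benjamini-Hochberg over all 15125 genes tested): ALDH1A3, ALDH2, ALDH1L2 and ALDH3A2 rose in shMETTL3 cells, and ALDH3B1, ALDH1A1, ALDH3A1, ALDH1B1 and ALDH7A1 fell. With library size alone as the scaling, ALDH1B1 and ALDH7A1 were no longer called. A change in METTL3-knocked down cells was common in these data, since 66.6% of all genes tested passed the same test, 33.7% higher and 32.9% lower. That balance also rests on the scaling, since library size alone gave 6750 genes higher and 3509 lower, and 4 members higher and 3 lower. In CPM, vector and shMETTL3 values were fully apart for all 9 tested members, against 69.4% of all genes tested. Only ALDH1A3 changed at least 2-fold (an absolute log2 fold change of at least 1), against 17.6% of all genes tested, and the other 8 changed by less. The median log2 fold change was -0.19 over the 9 members and 0.0022 over all genes tested, or -0.012 and 0.18 with library size alone. In bulk RNA, fewer cells expressing a gene and less RNA per cell cannot be told apart.

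**Figure D1:**
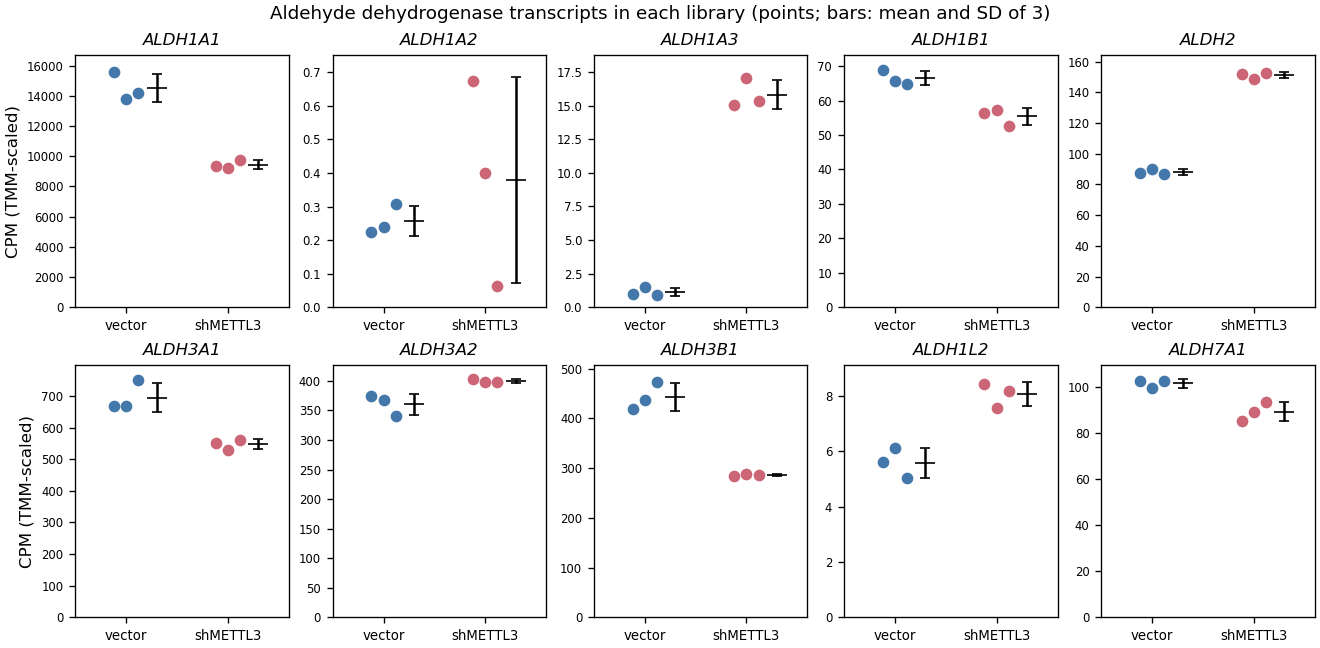
Level of the 10 aldehyde dehydrogenases in CPM (TMM-scaled, linear axes from 0) in each of 3 vector and 3 shMETTL3 libraries; points are libraries, and the black marks give the mean and SD. The groups are apart in 9 panels, ALDH1A3 rises from at most 1.496 CPM to at least 15.02 CPM, and the ALDH1A2 points overlap at under 1 CPM.

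Transcript levels spanned a wide range when set per length as RPKM (CPM per kilobase of the union of a gene's exons). ALDH1A1 stood at 5113 ± 333 RPKM in vector cells, the 11th highest of 19393 protein-coding genes, and at 3328 ± 96.4 RPKM in shMETTL3 cells, the 12th. Its reads alone were 1.37% ± 0.102 of all counts in the vector libraries and 1.003% ± 0.0344 in the shMETTL3 libraries. Of the summed RPKM of the 10 members, ALDH1A1 made up 94.3% ± 0.483 in vector and 92.9% ± 0.121 in shMETTL3 cells. These shares rest on the length used, and with coding length in its place they were 88.7% and 85.5%.

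Next in the vector order came ALDH3A1 at 179 ± 12.1 RPKM and ALDH3B1 at 67.0 ± 4.24 RPKM. ALDH3A2 (23.5 ± 1.16 RPKM) and ALDH1B1 (21.3 ± 0.680 RPKM) were close, with the lowest ALDH3A2 library at 22.2 RPKM and the highest ALDH1B1 library at 22.1 RPKM. This closeness rests on the exon union, which is 15331 bases for ALDH3A2 and 3117 for ALDH1B1. Their coding lengths are nearly equal, at 1563 and 1551 bases, while their vector CPM were 361 and 66.5, so per coding length they were far apart. ALDH2 followed at 9.05 ± 0.190 RPKM and ALDH7A1 at 5.67 ± 0.103 RPKM. Those 7 were well above the remaining 3. ALDH1L2 stood at 0.588 ± 0.0570 RPKM, ALDH1A3 at 0.214 ± 0.0585 RPKM and ALDH1A2 at 0.0315 ± 0.00545 RPKM. No pair of neighbours in the order overlapped over its 3 libraries in either group.

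In shMETTL3 cells the order was the same except that ALDH1A3, at 2.96 ± 0.204 RPKM, passed ALDH1L2, at 0.850 ± 0.0466 RPKM. Per exon union, ALDH2, which rose, and ALDH1B1, which fell, came closer together, at 15.5 ± 0.204 and 17.8 ± 0.808 RPKM. Both have a coding length of 1551 bases, and per coding length they moved apart. Their CPM were 88.0 and 66.5 in vector cells and 151 and 55.4 in shMETTL3 cells. Their order also depends on the length: per coding length ALDH7A1 came at rank 5, ALDH2 at rank 6 and ALDH1B1 at rank 7 in vector cells. Among the protein-coding genes ALDH2 moved from rank 3659 to 2127 and ALDH1A3 from 11848 to 7284, while ALDH3A1 stood at 155 and 159. Summed RPKM over the 10 members in shMETTL3 cells was 66.1% of that in vector cells, and 82.5% with ALDH1A1 left out.

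**Figure D2:**
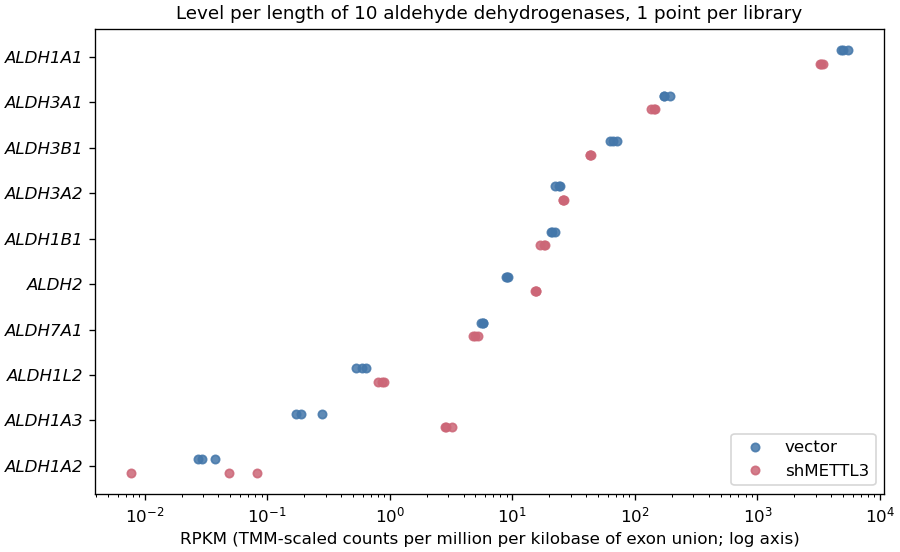
Level per length of the 10 members as RPKM (log axis), ordered by the vector mean, with 1 point per library. ALDH1A1 lies at 3251 RPKM or more in all 6 libraries, far right of the next gene, and ALDH1A3 is the member whose 2 colours lie farthest apart.

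Among the retinaldehyde dehydrogenases, the abundant ALDH1A1 fell and the scarce ALDH1A3 rose. ALDH1A1 (GRCh37 chr9:75515587-75695358, minus strand, 13 exons) had 15587, 13781 and 14192 CPM in vector replicates 1, 2 and 3 and 9359, 9234 and 9758 CPM in shMETTL3 replicates 1, 2 and 3. The groups did not overlap, and vector replicate 1 was the highest of all 6. The mean fell from 14520.0 ± 947 to 9450.4 ± 274 CPM, 65.1% of the vector level, with a log2 fold change of -0.62 (SE 0.052, adjusted p = 4.73e-11). It stayed called under all 14 alternatives that gave their own fold change and test, with log2 fold changes from -0.66 to -0.45. It was not called where an absolute log2 fold change of at least 1 was required. None of the 50-base stretches of its main transcript occurs in another gene's transcripts.

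ALDH1A3 (GRCh37 chr15:101417919-101456831, plus strand, 13 exons) was counted 18, 25 and 15 times in vector cells and 290, 342 and 244 times in shMETTL3 cells. As CPM these were 1.003, 1.496 and 0.919 against 15.02, 17.1 and 15.4. All vector values lay above the floor but were low, and the groups were far apart. The mean rose from 1.14 ± 0.312 to 15.8 ± 1.09 CPM, 13.8-fold by the fit, with a log2 fold change of 3.79 (SE 0.163, adjusted p = 2.07e-17). Of all genes tested, 118 had a larger log2 rise. The antisense gene ALDH1A3-AS1 overlaps 32.15% of the exon bases of ALDH1A3 on the other strand. The count table has no row under that name, and no source says whether the counting used strand. Antisense reads over these bases may therefore have been counted in ALDH1A3, and reads of the pair may not be separable.

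ALDH1A2 (GRCh37 chr15:58245622-58790065, minus strand), the form that leads retinoic acid synthesis in the embryo, was counted 4, 4 and 5 times in vector cells and 13, 8 and 1 times in shMETTL3 cells. The shMETTL3 values lay on both sides of the vector values, at 0.0630 to 0.673 CPM against 0.223 to 0.306 CPM, and no difference was detectable at this depth. Summed over the 3 retinaldehyde dehydrogenases, RPKM in shMETTL3 cells was 65.1% of that in vector cells. The ALDH1A3 share of this sum, which itself fell, was 0.00422% ± 0.00135 in vector and 0.0891% ± 0.00794 in shMETTL3 cells. ALDH1A1 thus accounted for nearly all of this transcript class in both groups.

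The genes whose pattern over the 6 libraries was most like that of ALDH1A3, by Euclidean distance between centred log2(CPM + 0.1) values, were ISYNA1 (distance 0.145, log2 fold change 3.89), CCDC198 (0.312, 4.09) and AHRR (0.318, 4.0). ISYNA1 makes inositol phosphate and AHRR encodes a repressor of the aryl hydrocarbon receptor. For ALDH3B1 (-0.63), whose fall was the largest in the fit but differed from that of ALDH1A1 (-0.62) by less than its SE and was the smaller of the pair without vector replicate 2, vector replicate 3 or shMETTL3 replicate 3, the closest were SHARPIN (distance 0.0496, log2 fold change -0.61), DTNB (0.0537, -0.61) and FBL (0.0552, -0.63). With 2 groups, such a likeness mostly reflects a similar size of change.

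The mitochondrial acetaldehyde dehydrogenases moved in opposite directions. ALDH2 (GRCh37 chr12:112204691-112255336, plus strand), the main enzyme of acetaldehyde clearance, had 87.1, 90.1 and 86.7 CPM in the vector and 152, 149 and 153 CPM in the shMETTL3 libraries. The shMETTL3 libraries were all higher and lay close together. The mean rose from 88.0 ± 1.85 to 151 ± 1.99 CPM, 1.72-fold, with a log2 fold change of 0.78 (SE 0.051, adjusted p = 2.06e-13). Of the 50-base stretches of its main transcript, 9.54% occur in other genes' transcripts, among them the overlapping same-strand gene ENSG00000257767, so part of its reads could have been assigned elsewhere or left out.

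ALDH1B1 (GRCh37 chr9:38392699-38398658, plus strand, 2 exons), which shares substrates with ALDH2 and can also oxidise retinaldehyde, had 68.9, 65.7 and 64.9 CPM in the vector and 56.3, 57.3 and 52.5 CPM in the shMETTL3 libraries. The groups were apart but by little. The mean fell from 66.5 ± 2.12 to 55.4 ± 2.52 CPM, 83.3% of the vector level (log2 fold change -0.26, SE 0.058, adjusted p = 0.000248). Under scaling by library size alone, which shifts the median log2 fold change of all genes by 0.17, its log2 fold change was -0.089 (adjusted p = 0.189), the one alternative of 14 that ended its call, with adjusted p from 3.57e-05 to 0.189 over all of them.

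In the ALDH3 family, ALDH3A1 and ALDH3B1 fell and ALDH3A2 was slightly higher. ALDH3A1 (GRCh37 chr17:19641297-19652256, minus strand, 11 exons), a cytosolic enzyme that is abundant in cornea and stomach, had 667, 669 and 749 CPM in the vector and 552, 529.7 and 562 CPM in the shMETTL3 libraries. All shMETTL3 libraries were lower, and vector replicate 3 stood above the other two. The mean was 695 ± 46.8 CPM and then 548 ± 16.4 CPM, a log2 fold change of -0.34 (SE 0.053, adjusted p = 2.26e-06). With library size alone as the scaling it was -0.17 (adjusted p = 0.00549).

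ALDH3B1 (GRCh37 chr11:67776048-67796749, plus strand, 13 exons), a membrane-bound enzyme for long-chain and lipid-derived aldehydes, had 418, 438 and 474 CPM in the vector and 285, 289 and 287 CPM in the shMETTL3 libraries. The shMETTL3 libraries were nearly equal and all lower. The mean fell from 443 ± 28.1 to 287 ± 1.88 CPM, 64.7% of the vector level, with a log2 fold change of -0.63 (SE 0.052, adjusted p = 2.74e-11). Its share of 50-base stretches found elsewhere was 2.17%, some of them in ALDH3B2, which had at most 2 counts in any library.

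ALDH3A2 (GRCh37 chr17:19551449-19589073, plus strand), the microsomal fatty aldehyde dehydrogenase that is mutated in Sjögren-Larsson syndrome, had 374, 368 and 340.2 CPM in the vector and 403, 399 and 398 CPM in the shMETTL3 libraries. The lowest shMETTL3 library exceeded the highest vector library. The rise was small, from 361 ± 17.8 to 400.1 ± 2.87 CPM, with a log2 fold change of 0.15 (SE 0.050, adjusted p = 0.01003), and it was not called at an adjusted p under 0.01. With library size alone as the scaling its log2 fold change was 0.32. ALDH3A1 and ALDH3A2 lie near each other on chromosome 17 and changed in opposite directions.

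ALDH1L2 (GRCh37 chr12:105413562-105501421, minus strand, 23 exons), the mitochondrial 10-formyltetrahydrofolate dehydrogenase, was counted 101, 102 and 82 times in vector cells and 163, 152 and 130 times in shMETTL3 cells, or 5.63, 6.11 and 5.03 against 8.44, 7.58 and 8.19 CPM. The groups were apart at this modest depth. The mean rose from 5.59 ± 0.541 to 8.07 ± 0.442 CPM, 1.44-fold (log2 fold change 0.53, SE 0.13, adjusted p = 0.00083). Its exons overlap those of 2 genes on the other strand, NOPCHAP1 over 1.53% of its exon bases (log2 fold change -0.39) and WASHC4 over 1.38% (log2 fold change 0.65). Its cytosolic counterpart ALDH1L1 was nearly absent, with 2 to 8 counts per library.

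ALDH7A1 (GRCh37 chr5:125866892-125931054, minus strand, 18 exons) oxidises an aldehyde of the lysine pathway and is mutated in pyridoxine-dependent epilepsy. Its values were 103, 99.4 and 103 CPM in the vector and 85.1, 89.3 and 93.6 CPM in the shMETTL3 libraries. All shMETTL3 libraries were lower. The mean was 102 ± 1.84 CPM and then 89.3 ± 4.25 CPM, 88.0% of the vector level (log2 fold change -0.19, SE 0.053, adjusted p = 0.00328). Under scaling by library size alone the log2 fold change was -0.012 (adjusted p = 0.857), and over the 14 alternatives the adjusted p ran from 0.00168 to 0.857. Of its 50-base stretches, 7.42% also occur in the pseudogene ALDH7A1P1.

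**Figure D3:**
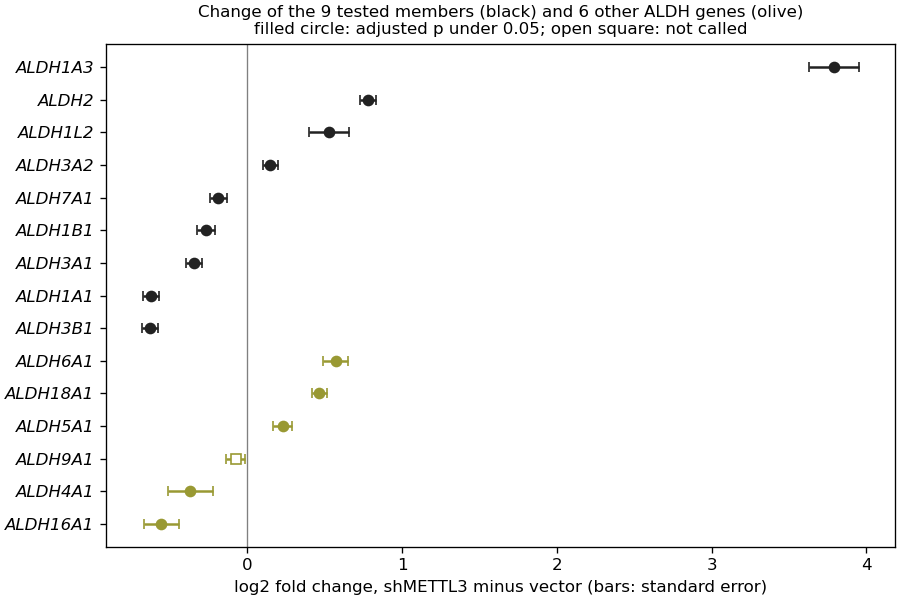
Log2 fold change (shMETTL3 minus vector, edgeR) with its standard error for the 9 tested members (black) and 6 other ALDH genes (olive); filled circles passed an adjusted p under 0.05 and the open square, ALDH9A1, did not. ALDH1A3 lies at 3.79, and the other 14 genes lie between -0.63 and 0.78.

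Of the 9 other ALDH genes of the human family, 6 were tested and 5 of those (83.3%) were called, 3 higher and 2 lower, against 66.6% of all genes tested. Their median log2 fold change was 0.077. ALDH6A1, the methylmalonate semialdehyde dehydrogenase of valine breakdown, rose from 14.7 ± 0.531 to 21.9 ± 0.605 CPM (log2 fold change 0.57, adjusted p = 6.96e-07). ALDH18A1, which makes the proline precursor pyrroline-5-carboxylate, rose from 142 ± 3.57 to 196 ± 1.71 CPM (0.47, 4.01e-09), and ALDH5A1, the succinate semialdehyde dehydrogenase of GABA breakdown, from 40.5 ± 1.16 to 47.5 ± 0.774 CPM (0.23, 0.00171, and 0.40 with library size alone). ALDH16A1 fell from 12.2 ± 0.893 to 8.28 ± 0.728 CPM (-0.55, 8.41e-05).

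ALDH4A1, of proline breakdown, was called lower at 6.90 ± 1.09 and 5.37 ± 0.590 CPM (log2 fold change -0.37, adjusted p = 0.0280), but its groups overlapped and 6 of 14 alternatives ended the call, with adjusted p from 0.0067 to 0.245. Of these, 4 left out a single library: vector replicate 2 (0.0503), vector replicate 3 (0.147), shMETTL3 replicate 1 (0.104) and shMETTL3 replicate 2 (0.0884). The others were library size alone (log2 fold change -0.19, adjusted p = 0.245) and DESeq2 (-0.37, 0.123). ALDH9A1, which acts on amine-derived aldehydes, was at 65.4 ± 3.78 and 62.0 ± 2.70 CPM and was not called (-0.075, 0.269), and its sign turned under scaling by library size alone (0.099). Without vector replicate 2 its log2 fold change was -0.033. ALDH1L1, ALDH3B2 and ALDH8A1 had at most 8 counts in any library and were not tested.

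The genes of the pathways that feed these enzymes or take up their products were compared in the same fit, over lists of known members. The called share of tested genes was 79.2% for the retinoid, 77.8% for the alcohol oxidation and 100% for the amine list. It was 66.7% for the fatty aldehyde, 62.5% for the one-carbon and 90.9% for the lysine and choline list. All genes tested gave 66.6% (33.7% higher, 32.9% lower), near the fatty aldehyde and one-carbon shares. Of 34 retinoid genes, 24 were tested and 19 were called, 9 higher and 10 lower (median log2 fold change 0.068), whereas library size alone gave 24 calls, 14 higher and 10 lower. The largest rises among those at or above a mean log2 CPM of 0 were DHRS9 (3.25, adjusted p = 1.01e-07), a retinol dehydrogenase that had 1 to 5 counts in the vector libraries, CRABP2 (2.34, 1.34e-07), which carries retinoic acid to its nuclear receptors, and RXRA (1.29, 8.68e-17), a partner of those receptors. With the same limit on the mean, the largest falls were SDR16C5 (-1.97, 1.71e-10), RDH12 (-1.76, 2.75e-06) and RDH13 (-1.22, 4.16e-13), of which SDR16C5 and RDH12 convert retinol and retinaldehyde. Retinol dehydrogenases thus moved in both directions.

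Of 12 alcohol oxidation genes, 9 were tested and 7 were called, 3 higher and 4 lower (median -0.095). CYP2E1 (2.61, adjusted p = 4.72e-09) and ADH4 (1.53, 5.45e-07), which oxidise ethanol, rose from 0.588 to 3.60 and from 1.86 to 5.44 CPM. Catalase, CAT (-0.81, 7.14e-14), and the acetyl-CoA synthetases ACSS2 (-1.33, 2.71e-17) and ACSS1 (-0.59, 1.22e-06), which use the acetate that ALDH2 forms, fell.

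Amine and polyamine genes, some of which form aldehydes, were mostly higher: of 10, 8 were tested and all 8 were called, 7 higher and 1 lower (median 0.79). Among all genes tested, 66.6% were called and 33.7% were called higher. SAT1 (1.81, adjusted p = 3.02e-21), of polyamine breakdown, SAT2 (1.0595, 1.12e-12) and AOC3 (1.75, 7.82e-07), an amine oxidase, rose, and ODC1 (-0.70, 7.95e-13), which makes putrescine, fell. SAT1 and MAOA lie on chromosome X, where the median over 460 tested genes was 0.74, against -0.0046 over 13528 genes on numbered chromosomes. Whether that chromosome-wide difference has a part in their rise was not tested.

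Of 10 fatty aldehyde genes, 9 were tested and 6 were called, 2 higher and 4 lower (median -0.052), or 3 and 3 with library size alone. CYP4F12 (0.69, adjusted p = 8.43e-06) and FAR1 (0.30, 0.000331), a fatty acyl-CoA reductase, rose. The fatty acid hydroxylases CYP4F3 (-0.84, 1.23e-11) and CYP4F11 (-0.55, 6.28e-08) and the peroxisomal lyase HACL1 (-0.48, 5.89e-07) fell.

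Of 20 folate one-carbon genes, to which ALDH1L2 belongs by function, 16 were tested and 10 were called, all of them lower (median -0.40). This one-sidedness rests on the scaling, since 13 were called with library size alone, 4 higher and 9 lower, and leaving out shMETTL3 replicate 2 gave 11 calls, 1 of them higher. Falls were largest, at or above a mean log2 CPM of 0, for TYMS (-0.89, adjusted p = 1e-08), the thymidylate synthase, SLC19A1 (-0.77, 5.43e-07), a folate carrier, and MTHFD2 (-0.76, 1.09e-12), the mitochondrial enzyme upstream of ALDH1L2. ALDH1L2 itself rose (0.53).

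Of 15 lysine and choline genes, 11 were tested and 10 were called, 3 higher and 7 lower (median -0.45). AASS (-0.94, adjusted p = 0.0082), which starts lysine breakdown by the saccharopine route upstream of ALDH7A1, DHTKD1 (-0.82, 1.01e-13), downstream of it, and HYKK (-0.99, 1.02e-08), a hydroxylysine kinase, fell. CRYM (1.35, 5.27e-05), AADAT (0.97, 3.28e-08) and CHDH (0.23, 0.0215), the choline dehydrogenase, rose.

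**Figure D4:**
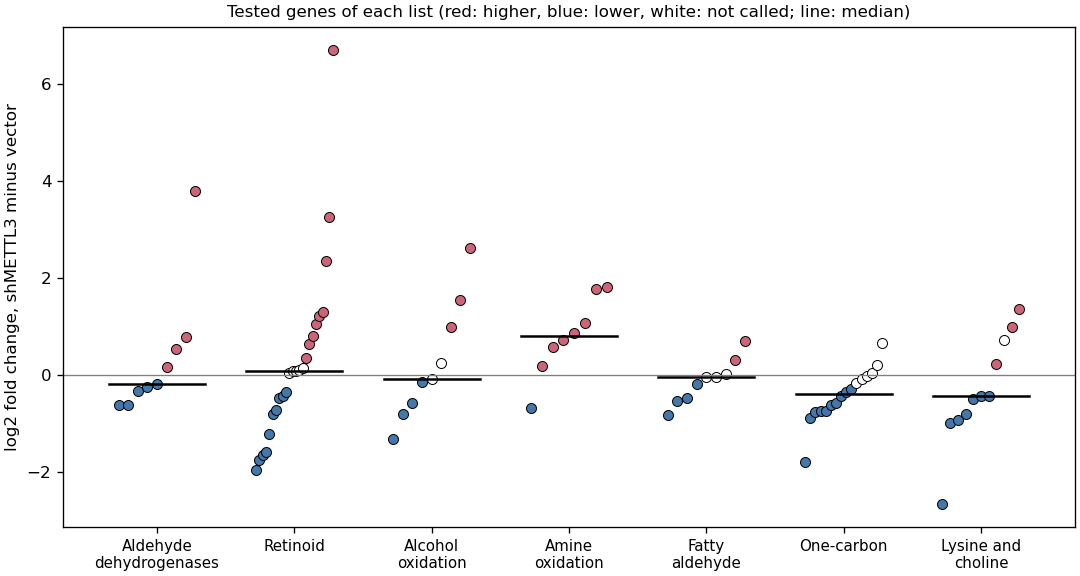
Log2 fold change (shMETTL3 minus vector) of each tested gene of the 9 members and of 6 pathway lists; red points were called higher, blue lower and white not called, and lines give each list's median. The retinoid point near the top is RBP7, which had 0 counts in every vector library but 13, 14 and 13 with shMETTL3, so its fitted value has no fixed size.

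The members lie on 6 chromosomes, and each was set beside the 10 nearest tested genes by start site, leaving out the other members and the 1108 tested rows whose symbols matched no position. Around ALDH1A1 the median log2 fold change of these neighbours was -0.33, with 6 called lower and 1 higher. Its closest neighbour ANXA1, 71.4 kb away, fell by 1.48. Around ALDH1A3 the median was 0.066, with 4 higher and 4 lower, and the closest, LRRK1 at 41.6 kb, rose by 1.99. ALDH1A3 itself lay above all 10 of its neighbours.

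ALDH2 had neighbours with a median of 0.025, 4 higher and 3 lower, and also lay above all 10, the highest being SH2B3 at 0.39. ALDH3A1 and ALDH3A2, each left out for the other, share the same 10 neighbours (median 0.11, 3 higher and 2 lower). Around ALDH3B1 the median was -0.14 (2 higher, 5 lower), around ALDH1B1 -0.15 (0 higher, 3 lower) and around ALDH7A1 0.14 (4 higher, 3 lower). Around ALDH1L2 it was 0.28, with 6 higher and 3 lower, and around the untested ALDH1A2 0.080, with 4 higher and 3 lower.

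**Figure D5:**
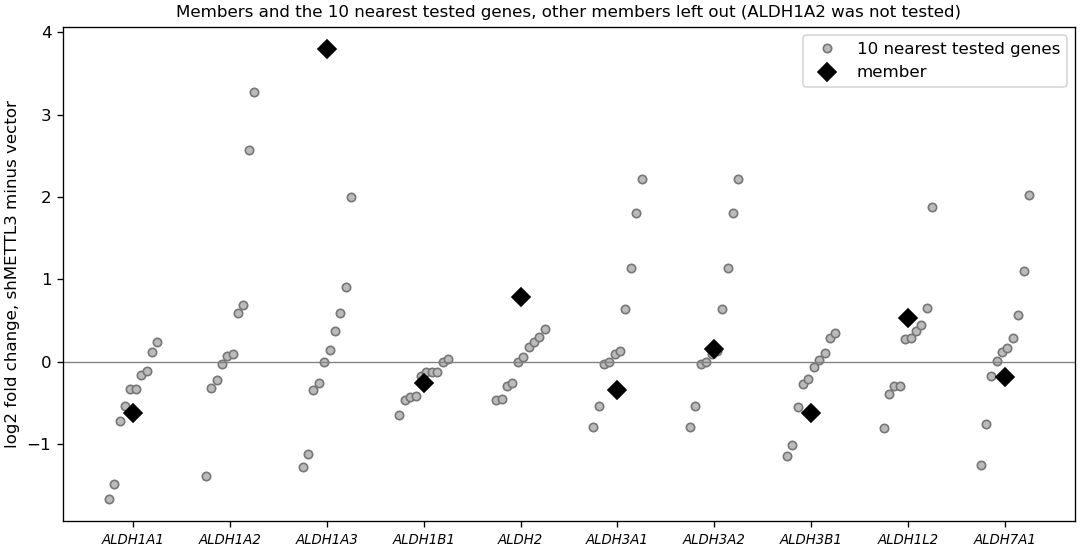
Log2 fold change (shMETTL3 minus vector) of each tested member (black diamond) and of the 10 tested genes with the nearest start sites, other members and rows without a position left out (grey circles); ALDH1A2 was not tested and has circles only. ALDH1A3 and ALDH2 lie above all of their neighbours, and most members lie within the spread of theirs.

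The sequence GGACT, a strong form of the motif at which METTL3 places m6A, occurred 0.269 (ALDH1L2) to 1.77 (ALDH1A2) times per kilobase in the members' main transcripts. The median over the 10 members was 0.635 per kilobase, and that over 12722 tested protein-coding genes 0.921 (quartiles 0.563 and 1.37). ALDH1A1 had 1 such site, 0.477 per kilobase, and ALDH1A3 had 2, 0.577 per kilobase. Members below the lower quartile fell (ALDH1A1) as well as rose (ALDH2 at 0.523 and ALDH1L2), and m6A itself was not measured in these libraries.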

How the data were processed

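RNA-seq libraries of A549 cells (3 vector, 3 shMETTL3) were analysed. The authors deposited whole-number counts per gene, neither normalised nor filtered, for 57781 rows named by gene symbol. The submitters' processing notes name cutadapt 3.0, HISAT2 2.2.1, SAMtools 1.13, HTSeq 0.13.5 and DESeq2 with hg19, and the study's methods name other releases of HISAT2 and HTSeq. The gene annotation and strand setting are not given in the sources used here. Groups were taken from the sample titles.

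Counts were tested in R 4.3.3 with edgeR 4.0.16 (TMM, filterByExpr, glmQLFit and glmQLFTest, group as the only term), with Benjamini-Hochberg adjustment over 15125 genes and calls at an adjusted p under 0.05. No separate p was computed over a gene list. RPKM used the union of exons in the GENCODE annotation of GRCh37, the build also called hg19, and positions came from it. Of the tested rows, 13688 matched it by current symbol, 329 through RefSeq synonyms and 1108 not at all. Promoter windows came from RefSeq (GRCh38.p14). Alternatives were DESeq2 1.42.0, voom in limma 3.58.1, RLE, upper-quartile or library-size scaling, testing without a filter or with a minimum of 10 counts per library, a replicate block, each library left out in turn, an absolute log2 fold change of at least 1, an adjusted p under 0.01 and other gene lengths. The test functions were tested on simulated data. The depth of 14931426 to 19108928 counts puts 3 counts at 0.150 to 0.189 CPM, and this floor covers counting error only.

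Members, gene lists and tests were chosen with earlier results of these data known. Genes named by rule are the 10 members, the other tested ALDH genes, METTL3, the 3 genes closest in profile to the members with the largest rise and fall, and, of each pathway list, up to 3 called genes with the largest rise and 3 with the largest fall at a mean log2 CPM of at least 0. Marker genes, genes that overlap or neighbour a member, MAOA, RBP7 and the aryl hydrocarbon receptor genes fall outside this rule, and all but the markers were chosen after their values were seen.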

Additional observations from a re-analysis of the deposited data

How the results depend on the processing

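Of the 9 tested aldehyde dehydrogenases, 7 kept their direction and their call under all 14 alternatives that give a fold change and a test, and ALDH1B1 and ALDH7A1 under 13, the exception being scaling by library size alone, where the median log2 fold change of the 9 was -0.012 in place of -0.19 and ALDH9A1 turned to 0.099 (adjusted p = 0.157). This scaling shifts the median log2 fold change of all genes by 0.17, and whether anything else had a part was not tested. With each of the 6 libraries left out in turn the median of the members ran from -0.22 to -0.15. Requiring an absolute log2 fold change of at least 1, which by its construction leaves fewer calls, gave 2668 genes (1545 higher, 1123 lower), 1 aldehyde dehydrogenase, 0 other ALDH genes, 11 retinoid, 3 alcohol oxidation, 3 amine oxidation, 0 fatty aldehyde, 1 one-carbon and 2 lysine and choline genes. The ALDH1A1 share of the summed RPKM was 88.7% in vector and 85.5% in shMETTL3 cells per coding length, and 90.4% and 88.2% per canonical transcript length, an alternative chosen after seeing the data. At an adjusted p under 0.01, 8 of the 9 tested members were called (3 higher, 5 lower), as were 8666 of all 15125 genes tested (4357 higher, 4309 lower). Same-numbered vector and shMETTL3 libraries did not deviate together (correlations of 0.051, -0.0057 and 0.033). With 3 libraries per group this cannot decide whether the numbers mark shared cultures, which the labels do not say. With the replicate number as a block, 10111 genes were called against 10067 without it, and 9 members with a median of -0.19. Depth limits ALDH1A2, ALDH1L1, ALDH3B2 and ALDH8A1, which were not tested, and ALDH1A3 in vector cells, at 15 to 25 counts.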

Other observations

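ALDH3A1 is a textbook target of the aryl hydrocarbon receptor, and AHRR was among the genes closest in profile to ALDH1A3, so the receptor and its best known targets were looked up after these values had been seen. AHR itself was at 94.3 ± 5.26 CPM in vector and 88.5 ± 5.06 CPM in shMETTL3 cells and was not called (log2 fold change -0.092, adjusted p = 0.161). CYP1A1 was counted 5, 2 and 1 times in vector cells and 735, 769 and 609 times in shMETTL3 cells (38.3 ± 0.169 CPM), a log2 fold change of 7.87 (adjusted p = 2.37e-23). AHRR rose from 1.22 ± 0.244 to 19.5 ± 2.46 CPM (4.0, adjusted p = 4.03e-18). TIPARP, a feedback inhibitor of the receptor, rose from 27.8 ± 1.30 to 74.6 ± 3.19 CPM (1.43, 4.35e-17), and CYP1B1 from 185 ± 9.53 to 312 ± 4.54 CPM (0.75, 4.64e-13). ALDH3A1 (-0.34) and NQO1 (-0.44, adjusted p = 1.12e-08), from 1783 ± 63.7 to 1318 ± 23.7 CPM, fell in the same libraries, and CYP1A2 had 0 counts in all 6.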
